A study of Homo sapiens with 10 samples.

Results

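The glucocorticoid response genes of human neural progenitor neurospheres are described here under 4 phthalate treatments and a solvent control. The members are the rows of the deposited count table whose gene symbol is NR3C1, SGK1, HSD11B2, HSD11B1, FKBP5, TSC22D3, PER1 or ZBTB16. They are picked out by name, and they make up 8 of the 46427 genes in the table. All 8 had enough counts to be tested, among 19465 tested genes. Glucocorticoids act through a nuclear receptor, the product of NR3C1, which waits in the cytoplasm on HSP90 chaperones and moves to the nucleus to switch genes on or off when cortisol binds. The enzymes encoded by HSD11B2 and HSD11B1 inactivate and regenerate cortisol inside the cell. In the developing nervous system the pathway is known for its part in progenitor division and in the maturation of neurons and glia.

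The cells were ReNcell VM, a human neural progenitor line that has been immortalised, used as a stand-in for primary progenitors. Spheres of 8000 seeded cells formed over 4 days, were moved to laminin and differentiated for 6 days under treatment, with medium and substances renewed every 2 days. The 10 RNA-seq libraries fell into 5 groups of 2, each library from 6 pooled neurospheres: DEP, DProP, DPP and Mix, each labelled 100 µM, and a vehicle control of 0.1% DMSO. The study addresses developmental neurotoxicity of phthalates with short linear chains, alone and together. DEP is the usual short form of diethyl phthalate and DProP that of di-n-propyl phthalate, a chain longer by a carbon at each ester. DPP is a short form used for more than 1 phthalate and the make-up of Mix is not given, so no structure is stated for either. The labels name no glucocorticoid added to the medium. Whether a group's libraries came from separate cultures is not stated, so the p-values reflect only how far these libraries spread, which may be technical.

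Both vehicle libraries lay apart from the 8 treated ones in several measures. Total counts ran from 57222381 to 72973100 in treated libraries, against 60695361 and 69697714 in vehicle libraries. Genes with at least 1 count numbered 22905 to 23646 per treated library, against 21500 and 21603 per vehicle library. Mitochondrially encoded transcripts took 0.0825% to 0.107% of counts in treated libraries, against 0.0255% and 0.0343% in vehicle libraries. Genes of higher GC content had lower log2 fold changes against vehicle over 16751 genes, which are no independent replicates (Spearman's rho -0.278, -0.293, -0.262 and -0.322 in DEP, DProP, DPP and Mix), while rho lay between -0.119 and 0.0498 in the 6 comparisons between treatments. No batch is named in the labels, and if the vehicle libraries were made apart from the rest, that cannot be told apart from treatment. The share of all tested genes with every treated library beyond both vehicle libraries was not counted. Separations of this kind given below therefore stand without that share. With edgeR, 10.1% of tested genes were higher and 13.5% lower in DEP than in vehicle, 14.7% higher and 17.5% lower in DProP, 16.7% higher and 19.5% lower in DPP, and 9.71% higher and 10.7% lower in Mix. The share of called genes that was higher depended on the scaling: with TMM scaling it was 42.7%, 45.7%, 46.2% and 47.6% in DEP, DProP, DPP and Mix, and with library size alone it was 79.2%, 77.5%, 72.6% and 81.9%. Library size alone moved the median log2 fold change of all tested genes to 0.16, 0.19, 0.18 and 0.16 in the same order, so the fold changes given below are relative to the TMM scale.

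Markers of the cell types that the spheres could hold differed between the groups as well. In bulk samples, fewer cells of a type and less RNA per cell cannot be told apart. The summed level of 7 neuron markers was 978 to 1593 CPM (counts scaled to library size with TMM) in treated libraries, against 1933 and 2003 CPM in vehicle libraries, and the sums of 7 astrocyte markers were 4698 to 5463 CPM, against 9000 and 9189 CPM in vehicle. The sums of 7 neural progenitor markers were 3890 to 4272 CPM in treated libraries, against 6733 and 6786 CPM in vehicle libraries. Of the neuron markers 5, 6, 6 and 3 fell in DEP, DProP, DPP and Mix, of the astrocyte markers 5, 5, 5 and 3, and of the progenitor markers 7, 7, 7 and 5, and none of these rose. Sums of 7 oligodendrocyte lineage markers (637 to 862 CPM in treated libraries, against 1206 and 1231 CPM in vehicle) and of 7 mesenchymal and smooth muscle markers (76.5 to 102.5 CPM, against 179 and 180.3 CPM) were lower too. Of the oligodendrocyte markers 2 fell in each treatment, and 1, PDGFRA, rose in Mix. Of the mesenchymal markers 5 fell in each treatment and none rose. Endothelial markers summed to 1.08 to 3.71 CPM in treated libraries, against 5.11 and 5.16 CPM in vehicle, with PECAM1, a defining marker, at 0, and 1 of the 4 tested fell in DEP and in DPP. Microglia markers summed to 0.453 CPM or less in every library, and none was tested. The part of these differences in the results below was not tested.

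Against vehicle, SGK1 rose and HSD11B2 fell in all 4 treatments, PER1 fell in DEP, DProP and DPP, TSC22D3 fell in DProP and DPP, and ZBTB16 rose in Mix. NR3C1, FKBP5 and HSD11B1 did not pass the test against vehicle in any treatment. Of the 8 members, 1 rose and 2 fell in DEP, 1 rose and 3 fell in DProP, 1 rose and 3 fell in DPP, and 2 rose and 1 fell in Mix. These counts stand beside the shares of all tested genes given above, which are large against vehicle. The median log2 fold change of the members was -0.19, -0.25, -0.28 and 0.0024 in DEP, DProP, DPP and Mix, beside medians of all tested genes of 0.0079, 0.017, 0.017 and 0.017. The 4 comparisons share the vehicle libraries.

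**Figure D1:**
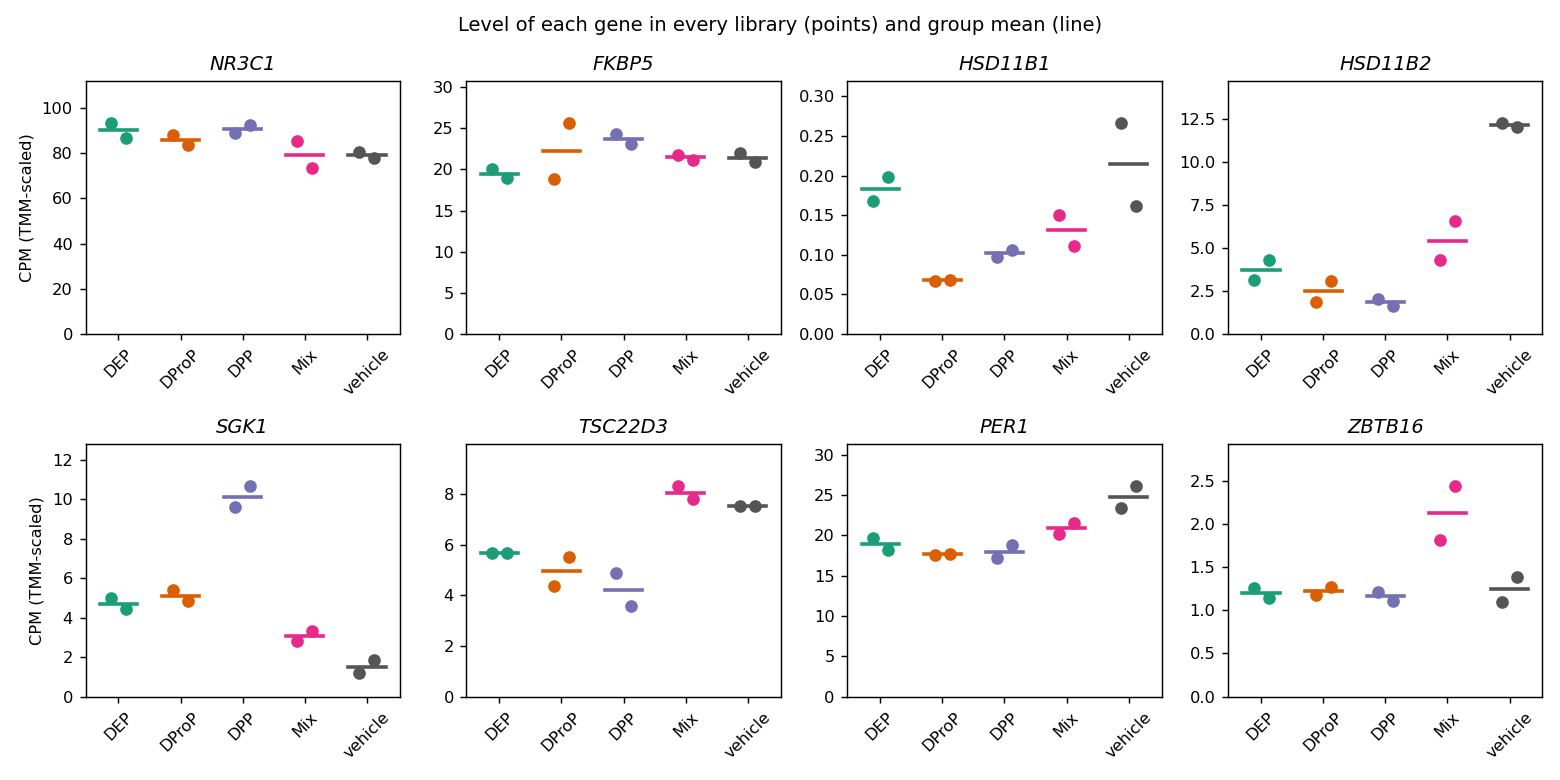
Level of each of the 8 genes (y axis, TMM-scaled CPM from 0) in every library (points) by group, with the group mean as a line. SGK1 lies between 2.80 and 10.7 CPM in the 8 treated libraries and at 1.19 and 1.84 CPM in the vehicle libraries. HSD11B2 lies between 1.62 and 6.58 CPM in the treated libraries and at 12.3 and 12.1 CPM in the vehicle libraries.

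NR3C1, which encodes the glucocorticoid receptor (gene 2908, chromosome 5, 143277931 to 143435512 of GRCh38.p14, minus strand), was the most abundant member per length in every group, at 9.81, 9.35, 9.90 and 8.65 CPM per kb of exon in DEP, DProP, DPP and Mix and 8.64 CPM per kb in vehicle. Its level was 93.2 and 86.8 CPM in the DEP libraries, 87.8 and 83.8 CPM in DProP, 89.0 and 92.6 CPM in DPP, 85.3 and 73.3 CPM in Mix, and 80.5 and 78.0 CPM in vehicle. The DEP, DProP and DPP libraries all lay above both vehicle libraries, and the Mix libraries lay on either side of them. The differences were small: the log2 fold changes were 0.18 ± 0.08 (SE), 0.11 ± 0.08, 0.20 ± 0.08 and 0.0021 ± 0.08 in DEP, DProP, DPP and Mix, with edgeR adjusted p-values of 0.0984, 0.273, 0.0611 and 0.991. The 95% intervals reached from 0.02 to 0.35, -0.05 to 0.28, 0.03 to 0.36 and -0.16 to 0.17. With library size alone, NR3C1 passed the test in DEP, DProP and DPP (0.34, 0.29 and 0.35), but that scaling shifts all genes upward by about the amount given above. The value in DPP was close to the threshold without passing it, and it passed with DESeq2 (adjusted p = 0.0434) and with the stricter filter (adjusted p = 0.0190). It also passed without Mix 1 or Mix 2, at a log2 fold change of 0.195 each time. The value in DEP passed with the stricter filter (adjusted p = 0.0392). The NR3C1 transcript is low in GC (39.1%, against a median of 48.8% over tested genes). With a correction for GC content and length its log2 fold changes were 0.15, 0.02, 0.13 and -0.09 in DEP, DProP, DPP and Mix. None of these passed (edgeR adjusted p = 0.0904, 0.831, 0.121 and 0.329).

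NR3C2 encodes the mineralocorticoid receptor, the paralogue that binds cortisol with higher affinity. It had 23.2 and 19.4 CPM in DEP, 20.1 and 17.7 CPM in DProP, 19.2 and 22.1 CPM in DPP, 21.3 and 15.8 CPM in Mix, and 13.2 and 14.9 CPM in vehicle. Every treated library lay above both vehicle libraries. NR3C2 rose in DEP (log2 fold change 0.60 ± 0.15, adjusted p = 0.0141), DProP (0.43 ± 0.15, adjusted p = 0.0469) and DPP (0.55 ± 0.15, adjusted p = 0.0131), and the value in Mix was 0.40 ± 0.15 (adjusted p = 0.0780). The DProP call held in 9 of 19 alternatives. The DEP call ended without DEP 1 (0.46, adjusted p = 0.126) or vehicle 1 (0.51, adjusted p = 0.0980), and the DPP call without DPP 2 (0.46, adjusted p = 0.0876) or vehicle 1 (0.46, adjusted p = 0.0956).

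FKBP5 encodes a cochaperone that holds the receptor in a state of low hormone affinity, and it is among the genes most readily induced by glucocorticoids in many tissues (gene 2289, chromosome 6, 35573590 to 35728583, minus strand). Its level was 20.0 and 18.9 CPM in DEP, 18.8 and 25.6 CPM in DProP, 24.2 and 23.1 CPM in DPP, 21.7 and 21.2 CPM in Mix, and 22.0 and 20.9 CPM in vehicle. The highest and the lowest of the 10 values both came from DProP, and the groups lay within a narrow band. The log2 fold changes were -0.14, 0.05, 0.14 and 0.0027 in DEP, DProP, DPP and Mix, with edgeR adjusted p-values of 0.440, 0.772, 0.376 and 0.993. The 95% intervals of -0.40 to 0.13, -0.21 to 0.32, -0.12 to 0.41 and -0.26 to 0.27 did not reach a change of 1 on the log2 scale in either direction. None of the 6 comparisons between treatments was called for FKBP5.

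HSD11B2 encodes the enzyme that oxidises cortisol to inactive cortisone and so shields a cell from the hormone (gene 3291, chromosome 16, 67429801 to 67437553, plus strand). It fell in all 4 treatments. Its level was 3.15 and 4.29 CPM in DEP, 1.87 and 3.09 CPM in DProP, 2.05 and 1.62 CPM in DPP, and 4.30 and 6.58 CPM in Mix, against 12.3 and 12.1 CPM in vehicle, which corresponds to 30.6%, 20.4%, 15.1% and 44.7% of the vehicle mean. No treated library came near the vehicle libraries, and DPP held the lowest group mean. Between 107 and 413 counts stood behind each treated value, against 784 and 670 behind the vehicle values. The log2 fold changes were -1.71 ± 0.26 in DEP (adjusted p = 0.00126), -2.29 ± 0.27 in DProP (adjusted p = 0.000155), -2.73 ± 0.27 in DPP (adjusted p = 3.77e-05) and -1.16 ± 0.25 in Mix (adjusted p = 0.00937).

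The transcript of HSD11B2 is rich in GC (63.2%, against a median of 48.8% over tested genes), and GC content moved with the fold changes against vehicle. With a correction for GC content and length the HSD11B2 log2 fold changes were -1.52, -2.03, -2.52 and -0.94 in DEP, DProP, DPP and Mix, and all 4 calls held. The Mix call ended without Mix 1 (-0.89, adjusted p = 0.0835). The gene overlaps AC009061.1, an lncRNA on the opposite strand, over 798 bases, and no source used here says whether the authors' counting used the strand, so reads from the pair cannot be told apart.

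HSD11B1 encodes the enzyme that turns cortisone back into cortisol in the endoplasmic reticulum (gene 3290, chromosome 1, 209686179 to 209734929, plus strand). It was barely detected, with 12 and 14 counts in the DEP libraries, 4 and 5 in DProP, 7 and 7 in DPP, 11 and 7 in Mix, and 17 and 9 in vehicle. Only 6.18% of tested genes had a mean level at or below its own. Vehicle held the highest value and DProP the lowest. Fold changes on the log2 scale stood at -0.23, -1.64, -1.07 and -0.70 in DEP, DProP, DPP and Mix, with standard errors between 0.62 and 0.69 and edgeR adjusted p-values of 0.819, 0.0914, 0.229 and 0.479, so that no difference was detectable at this depth. The gene AL031316.1 lies antisense to it over 37948 bases. H6PD, whose product supplies the enzyme with reduced cofactor, was well expressed and did not pass the test in any treatment: its means were 108, 113, 111 and 122 CPM in DEP, DProP, DPP and Mix, against 119.7 CPM in vehicle (adjusted p = 0.0979, 0.309, 0.178 and 0.760).

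SGK1 encodes a serine/threonine kinase that regulates ion channels and transporters, and its transcript is induced by glucocorticoids, mineralocorticoids, serum and cell stress (gene 6446, chromosome 6, 134169256 to 134318112, minus strand). RefSeq gives 3 start regions for it in the promoter windows of GRCh38.p14. The 250 bases before the downstream pair of starts are shown, since SGK1 is the member that rose most and these windows hold TATA letters close to the start. The canonical glucocorticoid response element, which is AGAACA and TGTTCT with 3 bases between them, was not found on either strand in these windows, nor was the arm AGAACA alone. Capitals mark TATAAA, the letters of a TATA box, or TTTATA, the same letters read on the other strand, which were added to the search after the windows had been read. The windows cover chr6:134177862-134178111 and chr6:134174867-134175116, both read 5′ to 3′ on the minus strand.
SGK1 upstream start: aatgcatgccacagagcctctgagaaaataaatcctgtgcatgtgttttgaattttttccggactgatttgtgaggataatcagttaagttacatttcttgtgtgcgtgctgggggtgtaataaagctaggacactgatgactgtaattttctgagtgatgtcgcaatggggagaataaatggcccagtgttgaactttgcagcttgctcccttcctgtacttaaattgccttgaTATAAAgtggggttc
SGK1 downstream start: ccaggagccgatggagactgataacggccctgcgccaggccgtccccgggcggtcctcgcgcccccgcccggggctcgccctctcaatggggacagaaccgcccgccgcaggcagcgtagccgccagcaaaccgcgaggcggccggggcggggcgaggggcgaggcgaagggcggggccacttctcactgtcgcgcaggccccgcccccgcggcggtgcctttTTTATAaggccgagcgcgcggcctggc

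The TATA letters begin 15 bases before the upstream of these starts and 27 bases before the downstream one, and 96 bases before the third, most upstream SGK1 start, whose window is not shown. Among the other members the letters were found in 1 NR3C1 window, 187 bases before the start, and in 1 TSC22D3 window, 29 bases before the start. They occur on either strand in 10.7% of 35116 RefSeq windows of the same length. The arm AGAACA occurs in 12.4% of those windows, the full element in 1 window (0.00285%), and neither in the window of any member that the table holds (NR3C1, SGK1, HSD11B1, FKBP5, TSC22D3 and PER1). These are matches of letters within 250 bases only. The counts are per gene, so the starts that gave the SGK1 reads are not resolved.

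SGK1 rose in all 4 treatments and most in DPP. Its level was 4.98 and 4.43 CPM in DEP, 5.40 and 4.82 CPM in DProP, 9.58 and 10.7 CPM in DPP, and 2.80 and 3.31 CPM in Mix, against 1.19 and 1.84 CPM in vehicle. No treated library overlapped the vehicle libraries, and the group means were 3.11, 3.38, 6.69 and 2.02 times that of vehicle. The counts were 357 and 313 in DEP, 320 and 353 in DProP, 687 and 705 in DPP, 205 and 208 in Mix, and 76 and 102 in vehicle. KRT8P42, a processed pseudogene on the same strand, shares 1699 bases of the SGK1 gene body. Shorter annotations on the opposite strand share 78 to 109 bases. Their part in the SGK1 counts was not tested. The log2 fold changes were 1.64 ± 0.20 in DEP (adjusted p = 0.000224), 1.76 ± 0.20 in DProP (adjusted p = 7.91e-05), 2.75 ± 0.20 in DPP (adjusted p = 3.67e-06) and 1.02 ± 0.20 in Mix (adjusted p = 0.00472) with edgeR. All 4 calls held in 19 of 19 alternatives without a fold minimum, among them the GC and length correction and the removal of any library. Against a minimum of 2-fold, DProP (adjusted p = 0.0269) and DPP (adjusted p = 0.000293) were still called, and DEP (adjusted p = 0.0787) and Mix (adjusted p = 1) were not.

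**Figure D2:**
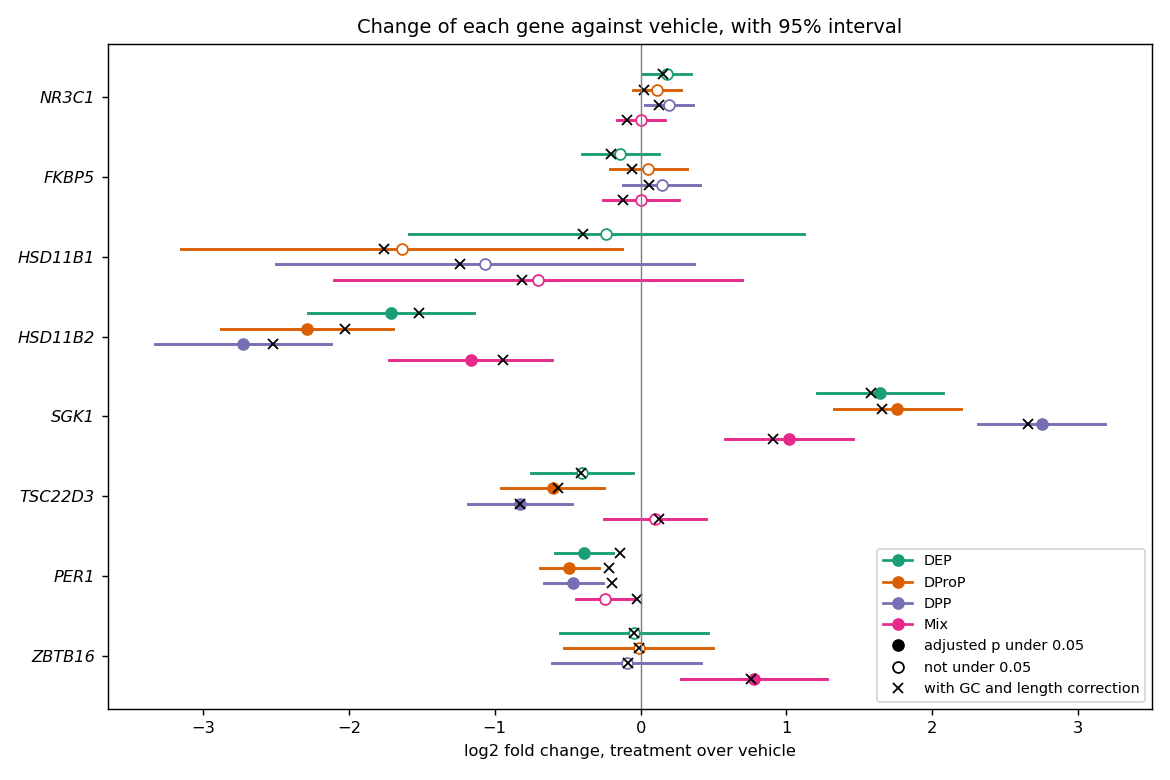
Log2 fold change of each gene (x axis) in DEP, DProP, DPP and Mix over vehicle, with the 95% interval as a bar. Filled circles have an edgeR adjusted p under 0.05, open circles do not, and crosses give the value with a correction for GC content and length. The SGK1 circles lie between 1.02 and 2.75 and the HSD11B2 circles between -2.73 and -1.16, while the PER1 crosses lie closer to 0 than its circles.

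TSC22D3, also called GILZ, encodes a leucine zipper protein that carries much of the anti-inflammatory action of glucocorticoids (gene 1831, chromosome X, 107713221 to 107775988, minus strand). It moved opposite to SGK1 where it was called. Its level was 5.69 and 5.69 CPM in DEP, 4.39 and 5.51 CPM in DProP, 4.88 and 3.57 CPM in DPP, and 8.32 and 7.79 CPM in Mix, against 7.51 and 7.53 CPM in vehicle. The DEP, DProP and DPP libraries all lay below vehicle, and the Mix libraries lay just above it. TSC22D3 fell in DProP (log2 fold change -0.60 ± 0.16, adjusted p = 0.0146) and in DPP (-0.83 ± 0.16, adjusted p = 0.00214). The values in DEP (-0.40 ± 0.16, adjusted p = 0.0899) and Mix (0.10 ± 0.16, adjusted p = 0.709) did not pass, though DEP did when fitted with vehicle only (adjusted p = 0.0379). The DPP call held in 19 of 19 alternatives without a fold minimum. The DProP call ended with library size alone (-0.43, adjusted p = 0.0547) and without DProP 1 (-0.45, adjusted p = 0.109), vehicle 1 (-0.61, adjusted p = 0.0531) or vehicle 2 (-0.60, adjusted p = 0.0591). NCBP2L lies on the opposite strand over 2444 bases of the gene, and reads from the pair cannot be told apart without strand.

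PER1 encodes a repressor of the circadian clock whose transcription glucocorticoids also raise (gene 5187, chromosome 17, 8140472 to 8152404, minus strand). Its promoter is shown for the E-box letters CACGTG, printed in capitals. An E-box is the kind of site through which the CLOCK and BMAL1 proteins act, and this one is a match of letters only. The window is chr17:8152405-8152654 of GRCh38.p14, minus strand, from RefSeq.
PER1 promoter: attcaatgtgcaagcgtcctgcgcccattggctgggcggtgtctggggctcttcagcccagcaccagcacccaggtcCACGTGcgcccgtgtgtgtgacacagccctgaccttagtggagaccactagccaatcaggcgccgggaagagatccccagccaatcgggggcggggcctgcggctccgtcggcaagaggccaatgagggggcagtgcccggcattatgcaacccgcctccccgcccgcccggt

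The E-box begins 173 bases before the PER1 start, and this motif occurs in 6.34% of the 35116 windows. Among the other members it was found in 1 of the 2 FKBP5 windows, 227 bases before that start. Neither position says whether a factor was bound in these cells.

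PER1 had 19.7 and 18.1 CPM in DEP, 17.5 and 17.7 CPM in DProP, 17.1 and 18.8 CPM in DPP, and 20.2 and 21.6 CPM in Mix, against 23.4 and 26.1 CPM in vehicle. All 8 treated libraries lay below both vehicle libraries, by a modest amount. The log2 fold changes were -0.39 ± 0.09 in DEP (adjusted p = 0.0108), -0.49 ± 0.09 in DProP (adjusted p = 0.00208) and -0.46 ± 0.09 in DPP (adjusted p = 0.00236), and -0.24 ± 0.09 in Mix (adjusted p = 0.0800), which did not pass. The PER1 transcript has a GC content of 62.7%, and with the correction for GC content and length all 3 calls ended, at -0.14 (adjusted p = 0.258), -0.22 (adjusted p = 0.0709) and -0.20 (adjusted p = 0.0909) in DEP, DProP and DPP. The DEP call also ended with library size alone (-0.23, adjusted p = 0.0800) and without DEP 2 (-0.33, adjusted p = 0.0932) or vehicle 2 (-0.31, adjusted p = 0.0776). PER1 shares 5691 bases of its gene body with AC129492.3, a protein-coding annotation on the same strand, so its counts are uncertain to that extent.

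ZBTB16, or PLZF, encodes a zinc finger repressor that glucocorticoids induce in many cell types (gene 7704, chromosome 11, 114059711 to 114256770, plus strand). It was the only member that rose in Mix without being called in DEP, DProP or DPP. Its level was 1.26 and 1.15 CPM in DEP, 1.18 and 1.27 CPM in DProP, 1.21 and 1.11 CPM in DPP, and 1.82 and 2.44 CPM in Mix, against 1.10 and 1.39 CPM in vehicle. The Mix libraries were the 2 highest of the 10, and the other treated libraries lay within the vehicle range. The log2 fold change in Mix was 0.78 ± 0.23 (edgeR adjusted p = 0.0328), and those in DEP, DProP and DPP were -0.04, -0.01 and -0.09 (adjusted p = 0.914, 0.975 and 0.785). The Mix call held in 13 of 19 alternatives. It ended with DESeq2 (adjusted p = 0.0990), when Mix and vehicle were fitted by themselves (adjusted p = 0.0687), and without Mix 2 (0.55, adjusted p = 0.195), vehicle 1 (0.61, adjusted p = 0.162), DEP 1 (adjusted p = 0.0512) or DEP 2 (adjusted p = 0.0512). An antisense gene, AP002518.2, covers 40061 bases of the ZBTB16 gene body.

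The treatments were compared with one another at the same labelled concentration in 6 pairs. These comparisons do not use the vehicle libraries as one of their sides. The background of called genes was small between the single compounds: 0.524% of tested genes differed between DProP and DEP, 2.93% between DPP and DEP and 0.262% between DPP and DProP. It was larger for the mixture, with 3.86% for Mix against DEP, 6.89% for Mix against DProP and 17.3% for Mix against DPP. Of the 8 members, 1 was called in DPP against DEP, 3 in Mix against DProP and 4 in Mix against DPP, and none in the other 3 pairs. In those 3 pairs edgeR's unadjusted p was under 0.05 for 0 members in DProP against DEP, 4 in Mix against DEP and 1 in DPP against DProP. Neuron markers differed between the treatments as well: they summed to 1277 and 1405 CPM in DEP, 1131 and 1184 CPM in DProP, 1087 and 978 CPM in DPP, and 1572 and 1593 CPM in Mix. Of the 7, 4 were lower in DPP than in DEP, 5 were higher in Mix than in DProP and 6 were higher in Mix than in DPP. Markers of other cell types moved in the pairs with Mix too. Against DPP, 3 astrocyte, 3 progenitor, 2 oligodendrocyte and 3 mesenchymal markers were higher in Mix and 1 progenitor marker was lower. Against DProP, 2 astrocyte, 2 progenitor and 1 oligodendrocyte marker were higher in Mix, and against DEP 2, 2 and 1 were higher and 1 mesenchymal marker was lower. The part of these markers in the differences below was not tested.

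SGK1 ran in the order DPP, DProP, DEP, Mix, vehicle, with means of 10.1, 5.11, 4.71, 3.06 and 1.51 CPM. DPP exceeded DEP by 1.11 ± 0.18 on the log2 scale (adjusted p = 0.00767). Its excess over DProP was nearly as large, at 0.99 ± 0.18 (95% interval 0.59 to 1.38), and lay at the edge of the threshold (adjusted p = 0.0515). That pair passed with DESeq2 (adjusted p = 0.000901), limma-voom (adjusted p = 0.0147), the stricter filter (adjusted p = 0.0174) and 5 further alternatives, and adjusted p reached 0.270 in those where it did not. DProP and DEP, which differ by a carbon in each ester chain, did not differ beyond their error in SGK1 (0.12 ± 0.18, 95% interval -0.28 to 0.51, adjusted p = 0.861).

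Mix lay below DPP in SGK1 (-1.73 ± 0.19, adjusted p = 0.000125) and below DProP (-0.74 ± 0.19, adjusted p = 0.0343), and its difference from DEP was -0.62 ± 0.19 (adjusted p = 0.0892), which passed in 4 of 20 alternatives. The call against DPP held in 20 of 20 alternatives without a fold minimum, and the call against DProP in 14 of 20. Mix against DProP lost its call without any 1 of the DEP, DProP and Mix libraries (adjusted p from 0.0621 to 0.224). DPP against DEP lost it without DEP 1 (1.19, adjusted p = 0.0648), DEP 2 (1.02, adjusted p = 0.149) or DPP 2 (1.03, adjusted p = 0.0812), with the size of the difference little changed.

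HSD11B2 ran in the reverse order of SGK1, with means of 1.84, 2.48, 3.72, 5.44 and 12.2 CPM in DPP, DProP, DEP, Mix and vehicle. It was higher in Mix than in DPP (1.56 ± 0.27, adjusted p = 0.00311) and DProP (1.12 ± 0.26, adjusted p = 0.0297). The call against DProP ended when both groups were fitted by themselves (adjusted p = 0.0949) and without DProP 1 (0.81, adjusted p = 0.140) or Mix 2 (0.79, adjusted p = 0.172). Mix and vehicle differed, as given above. The neighbouring treatments in this order did not differ beyond their error: DPP against DProP gave -0.44 (95% interval -1.05 to 0.17, adjusted p = 0.578), DProP against DEP -0.58 (-1.16 to 0.01, adjusted p = 0.387) and Mix against DEP 0.55 (-0.02 to 1.11, adjusted p = 0.283). DPP against DEP gave -1.02 ± 0.27 (adjusted p = 0.0789) and passed in 4 of 20 alternatives, among them DESeq2 (adjusted p = 0.00705).

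TSC22D3 was higher in Mix than in DPP (0.93 ± 0.16, adjusted p = 0.00259) and DProP (0.70 ± 0.16, adjusted p = 0.0240), and its difference from DEP was 0.50 ± 0.16 (adjusted p = 0.108). Mix against DProP lost its call without DProP 1 (0.55, adjusted p = 0.147), Mix 1 (0.65, adjusted p = 0.144) or Mix 2 (0.75, adjusted p = 0.0730). ZBTB16 was higher in Mix than in DPP (0.87 ± 0.23, adjusted p = 0.0216), and its values against DProP (0.79 ± 0.23, adjusted p = 0.0594) and DEP (0.82 ± 0.23, adjusted p = 0.0698) were of similar size. Its call against DPP ended without DPP 1 (0.94, adjusted p = 0.0573), DPP 2 (0.80, adjusted p = 0.121) or Mix 2 (0.65, adjusted p = 0.165). PER1 did not pass in any pair of treatments, with differences from -0.10 to 0.24. NR3C1 differed by -0.19 to 0.08 and passed in no pair. In Mix against DPP it was called lower in 3 of 20 alternatives: the stricter filter (-0.21, adjusted p = 0.0473), without Mix 1 (-0.31, adjusted p = 0.0333) and the GC and length correction (-0.22, adjusted p = 0.0222). That correction also called it lower in Mix than in DEP (-0.25, adjusted p = 0.0355).

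**Figure D3:**
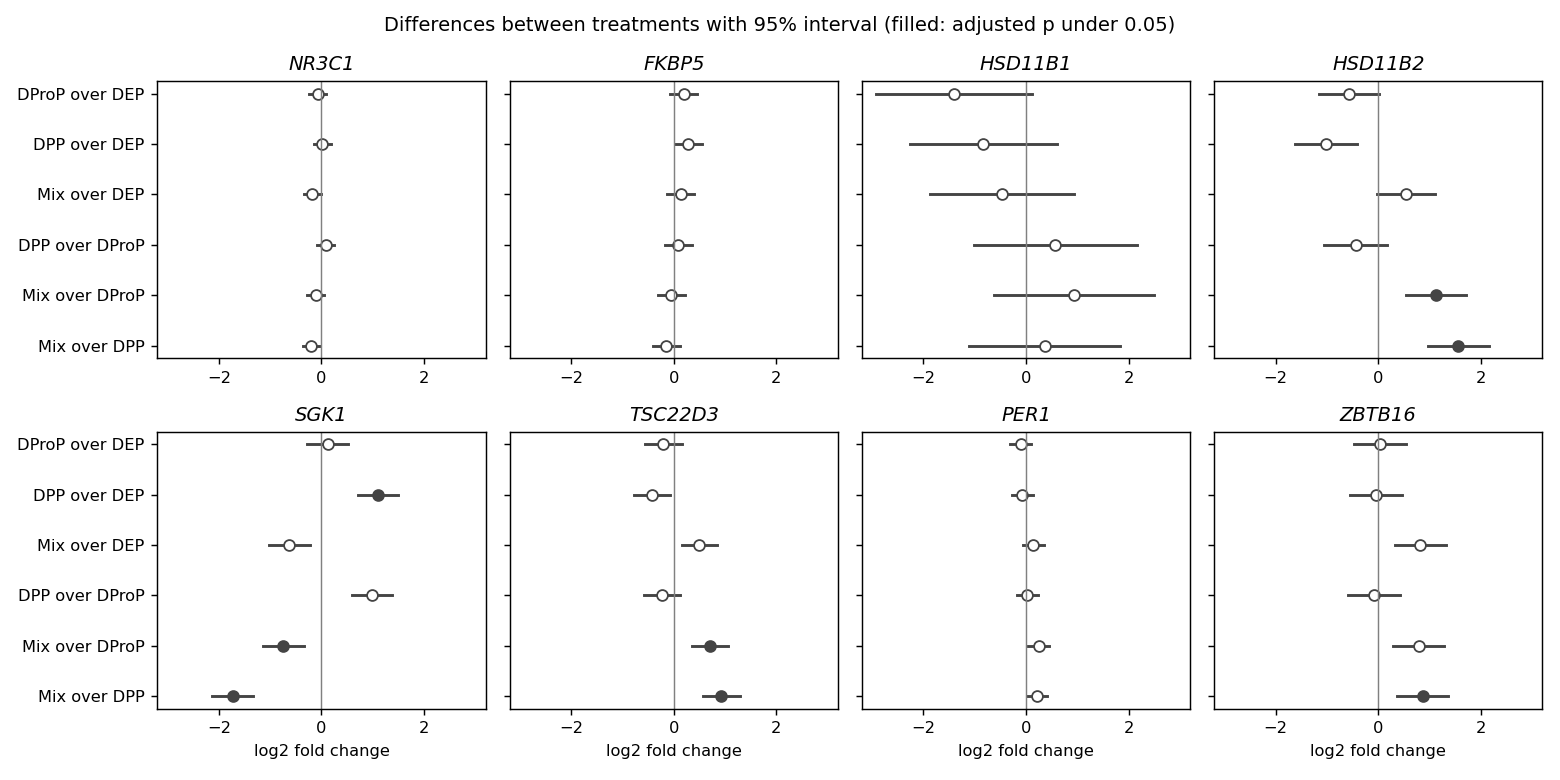
Log2 fold change of each gene (x axis) for the 6 pairs of treatments, first over second as written on the y axis, with the 95% interval as a bar and filled circles for an edgeR adjusted p under 0.05. Among the called pairs SGK1 in Mix over DPP (-1.73) and HSD11B2 in Mix over DPP (1.56) lie farthest from 0, followed by HSD11B2 in Mix over DProP (1.12) and SGK1 in DPP over DEP (1.11).

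The members covered a wide range of abundance. Per kb of exon, the vehicle order was NR3C1 (8.64 CPM per kb), HSD11B2 (4.55), PER1 (3.53), FKBP5 (2.01), TSC22D3 (1.58), ZBTB16 (0.195), SGK1 (0.151) and HSD11B1 (0.141). In DPP, SGK1 reached 1.01 CPM per kb and HSD11B2 stood at 0.686 CPM per kb, so their order was turned round. The order SGK1 above HSD11B2 was seen in no other group by this measure. Exon length is that of the union of annotated exons, and the libraries were captured with an exome kit, so levels of different genes also carry differences in capture.

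The genes whose levels followed those of a called member most closely were found over 13909 genes by the root mean square difference of centred log2 CPM across the 10 libraries. For SGK1 they were FOSL1, an AP-1 subunit gene (0.225), ARC, an activity-regulated neuronal gene (0.242), and POU3F1, a POU transcription factor gene (0.270). Their log2 fold changes in DEP, DProP, DPP and Mix over vehicle were 1.03, 1.39, 2.44 and 0.58 for FOSL1, 1.41, 1.49, 2.12 and 0.99 for ARC, and 1.78, 1.82, 2.22 and 1.01 for POU3F1. For HSD11B2 they were SLC4A11, a membrane transporter gene (0.154), EFCAB1 (0.191) and DRAXIN, an axon guidance gene (0.264), and SLC4A11 stood at -1.49, -1.97, -2.42 and -1.16 in the same treatments. For TSC22D3 they were GNG4, CPXM1 and GYG2 (0.0795 to 0.0941), for PER1 ZNF524, DVL3 and NACAD (0.0482 to 0.0501), and for ZBTB16 EFCAB13, SFRP1 and AGAP2 (0.149 to 0.154). These likenesses describe 10 libraries in 5 groups.

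The wider set of genes that glucocorticoids are known to induce moved in both directions. Of 30 listed genes 27 were tested. In DEP 4 rose and 6 fell, in DProP 5 rose and 7 fell, in DPP 8 rose and 7 fell, and in Mix 1 rose and 2 fell. Over all tested genes, 10.1%, 14.7%, 16.7% and 9.71% rose in DEP, DProP, DPP and Mix. The shares that fell were 13.5%, 17.5%, 19.5% and 10.7% in the same order. The list's median log2 fold changes were -0.07, -0.0007, 0.10 and -0.04 in DEP, DProP, DPP and Mix, beside the medians of all tested genes given above. With library size alone the counts became 8 and 3, 8 and 4, 11 and 4, and 5 and 2. CDKN1A, a cell cycle inhibitor gene that also responds to p53, had 157 and 146 CPM in DEP, 151 and 149 CPM in DProP, 189 and 195 CPM in DPP, 119 and 128 CPM in Mix, and 111 and 112 CPM in vehicle. It rose in DEP (0.45 ± 0.06, adjusted p = 0.000418), DProP (0.43 ± 0.06, adjusted p = 0.000289) and DPP (0.78 ± 0.06, adjusted p = 4.15e-06). MT1X, which encodes a metal-binding metallothionein and has close paralogues, had 27.1 and 26.4 CPM in DEP, 17.4 and 15.9 CPM in DProP, 30.0 and 31.7 CPM in DPP, 13.3 and 15.7 CPM in Mix, and 11.2 and 14.1 CPM in vehicle. It was highest in DPP and DEP, where it rose by 1.29 ± 0.12 and 1.08 ± 0.12 on the log2 scale. MT1X also rose in DProP (0.40 ± 0.12, adjusted p = 0.0222), a call that ended without DProP 1 (0.33, adjusted p = 0.125) or vehicle 1 (0.24, adjusted p = 0.177).

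The genes of this list that fell included GPX3, which encodes a secreted glutathione peroxidase, and CRISPLD2, which encodes a secreted glycoprotein. GPX3 had 15.2 and 18.5 CPM in DEP, 14.2 and 15.4 CPM in DProP, 12.5 and 8.62 CPM in DPP, and 30.1 and 28.6 CPM in Mix, against 30.4 and 32.1 CPM in vehicle. It fell in DEP (-0.89, adjusted p = 0.00182), DProP (-1.08, adjusted p = 0.000366) and DPP (-1.57, adjusted p = 2.43e-05), and its Mix libraries lay just below vehicle. CRISPLD2 fell in the same 3 treatments (-1.11, -0.78 and -1.25). The GPX3 and CRISPLD2 calls and the CDKN1A calls in DEP, DProP and DPP held in 19 of 19 alternatives without a fold minimum. CDKN1C, another cell cycle inhibitor gene of the list, chosen after its values were seen, fell in all 4 treatments (-0.58, -0.74, -0.97 and -0.71), and its DEP call ended without DEP 1 (adjusted p = 0.0566) or DEP 2 (adjusted p = 0.0603).

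With TMM scaling, more of the chaperones and cochaperones that fold and carry the receptor fell than rose. Of 18 genes, all tested, 8 fell and 1 rose in DEP, 11 fell and none rose in DProP, 9 fell and 3 rose in DPP, and 9 fell and none rose in Mix, and the list's medians on the log2 scale were -0.19, -0.27, -0.20 and -0.25. Over all tested genes 13.5%, 17.5%, 19.5% and 10.7% fell and 10.1%, 14.7%, 16.7% and 9.71% rose in the same treatments. With library size alone the list's counts were 3 lower and 3 higher, 7 and 2, 4 and 4, and 4 and 1, and the medians -0.04, -0.10, -0.04 and -0.11. With the GC and length correction 6, 7, 7 and 8 fell and 1, 1, 1 and 0 rose. HSPA8, the constitutive HSP70 gene, had 358 and 344 CPM in DEP, 322 and 332 CPM in DProP, 361 and 375 CPM in DPP, and 324 and 321 CPM in Mix, against 505 and 540 CPM in vehicle. It fell in all 4 treatments (-0.57, -0.68, -0.51 and -0.70, adjusted p from 1.1e-05 to 6.23e-05), and each of these calls held in 19 of 19 alternatives. The HSP90 genes HSP90AA1 (-0.34, -0.47, -0.27 and -0.59) and HSP90AB1 (-0.35, -0.40, -0.35 and -0.32) fell in DEP, DProP, DPP and Mix as well. The HSP90AA1 calls in DEP (-0.18, adjusted p = 0.0572) and DPP (-0.11, adjusted p = 0.187) ended with library size alone, and that in DPP also without DPP 1 (adjusted p = 0.0631) or vehicle 2 (adjusted p = 0.0729). DNAJB1, an HSP40 cochaperone gene, rose in DEP (0.30, adjusted p = 0.0167) and DPP (0.59, adjusted p = 0.000170), and its DEP call ended without DEP 1 (adjusted p = 0.132) or vehicle 1 (adjusted p = 0.118).

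Coactivators and corepressors of the receptor were called in both directions with TMM scaling. Of 19 tested genes 2 rose and 4 fell in DEP, 5 rose and 4 fell in DProP, 4 rose and 4 fell in DPP, and 2 rose and 3 fell in Mix. Among all tested genes the shares that rose were 10.1%, 14.7%, 16.7% and 9.71% in the same treatments. The shares that fell were 13.5%, 17.5%, 19.5% and 10.7%. When only library size was used for scaling, 8, 9, 9 and 7 coregulator genes rose and 2, 2, 2 and 0 fell. NRIP1, a hormone-regulated corepressor gene, had 182 and 174 CPM in DEP, 209 and 202 CPM in DProP, 228 and 255 CPM in DPP, 179 and 170.4 CPM in Mix, and 169.9 and 143 CPM in vehicle. It rose in DProP (0.39, adjusted p = 0.00361) and DPP (0.62, adjusted p = 0.000146). MED14, a Mediator subunit gene, rose in DEP, DProP and DPP (0.23, 0.31 and 0.32), and its DEP call held in 16 of 19 alternatives. SMARCA4, the chromatin remodelling ATPase gene, fell in DEP, DProP, DPP and Mix (-0.34, -0.36, -0.40 and -0.22), and TRIM28, a corepressor gene, likewise (-0.41, -0.40, -0.50 and -0.30). With the GC and length correction the SMARCA4 calls in DEP (-0.12, adjusted p = 0.0789) and Mix (-0.03, adjusted p = 0.746) and the TRIM28 calls in DProP (-0.11, adjusted p = 0.146) and Mix (-0.06, adjusted p = 0.530) ended. The Mix calls of both genes also ended without Mix 1 (adjusted p = 0.168 for SMARCA4 and 0.136 for TRIM28) or vehicle 2 (adjusted p = 0.111 and 0.0937).

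**Figure D4:**
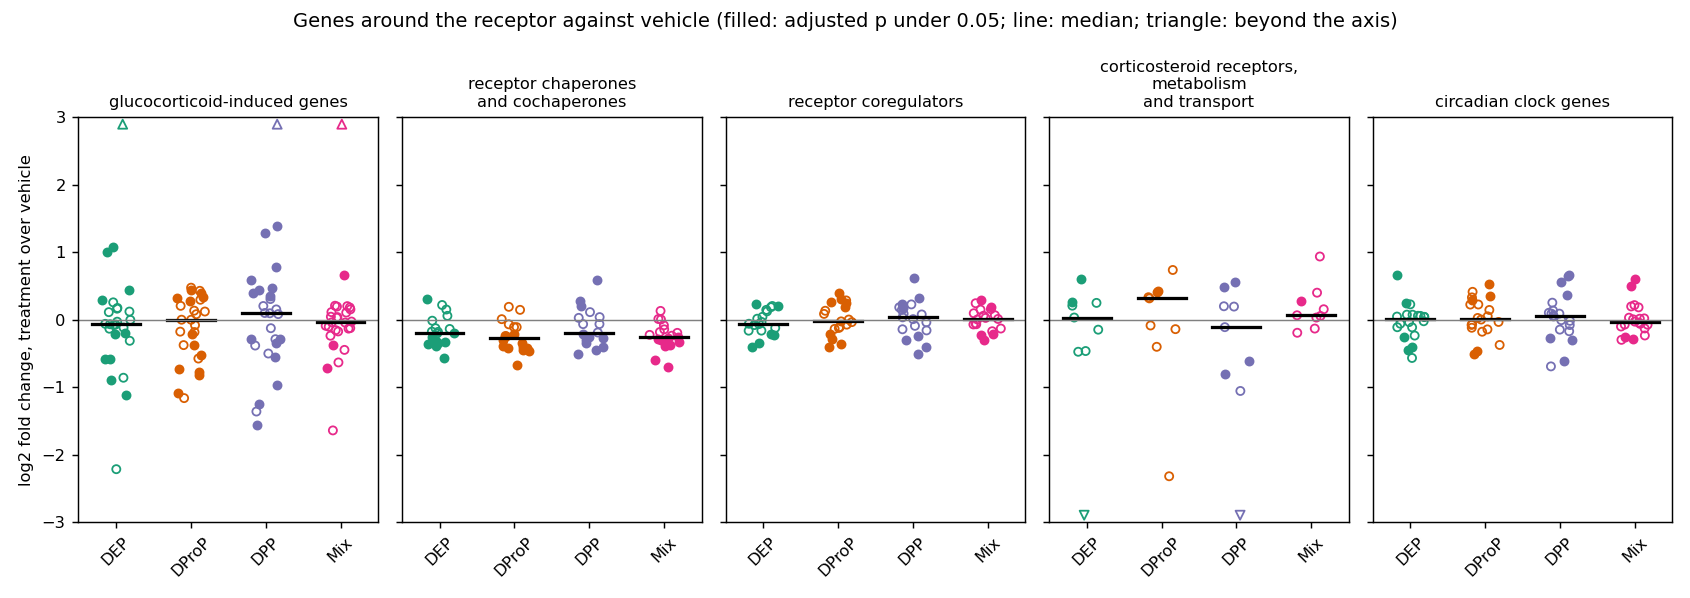
Log2 fold change over vehicle (y axis) of each tested gene of 5 lists in DEP, DProP, DPP and Mix, with filled circles for an edgeR adjusted p under 0.05, a line at the list's median and triangles for low-count genes beyond the axis. The chaperone medians lie between -0.27 and -0.19, while the glucocorticoid-induced list spreads to both sides of 0.

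Few genes of steroid synthesis and metabolism were expressed: of 20 listed genes of corticosteroid receptors, metabolism and transport 9 were tested. In DEP 2 rose, in DProP 2 rose, in DPP 2 rose and 2 fell, and in Mix 1 rose, with none lower in DEP, DProP or Mix. These small counts stand beside the shares of all tested genes given above for the coregulators. SRD5A1, which encodes a steroid 5-alpha reductase, rose in all 4 treatments, with 0.42 in DProP (adjusted p = 0.00380) and 0.48 in DPP (adjusted p = 0.00119), and its calls in DEP (0.26) and Mix (0.28) held in only 4 and 5 of 19 alternatives. AKR1C3, an aldo-keto reductase gene with close paralogues, fell in DPP (-0.62, adjusted p = 0.0149), and so did CYP21A2, the steroid 21-hydroxylase gene (-0.81, adjusted p = 0.0385), which has a near-identical pseudogene that makes its counts uncertain. The CYP21A2 call held in 12 of 19 alternatives, and the estimate was -0.45 without DPP 2 (adjusted p = 0.263) and -0.50 without vehicle 1 (adjusted p = 0.264). The AKR1C3 call ended with DESeq2 (adjusted p = 0.0542), when DPP and vehicle were fitted by themselves (adjusted p = 0.0574), and without DPP 1 (adjusted p = 0.0786) or vehicle 2 (adjusted p = 0.0724).

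Among paralogues of the members, 15 of 18 listed genes were tested. In DEP 1 rose and 3 fell, in DProP 3 rose and 4 fell, in DPP 2 rose and 6 fell, and in Mix none rose and 4 fell. The shares of all tested genes given above for the coregulators stand beside these counts. Under library size alone 3, 4, 5 and 1 paralogues rose and 2, 2, 3 and 2 fell. TSC22D4, a paralogue of TSC22D3, had 121 and 115 CPM in DEP, 107 and 102 CPM in DProP, 125 and 107 CPM in DPP, and 108 and 114 CPM in Mix, against 153 and 177 CPM in vehicle. It fell in all 4 treatments, Mix included (-0.48, -0.66, -0.51 and -0.57), with every call kept in 19 of 19 alternatives. FKBP9 (-0.43, -0.39, -0.39 and -0.36) and FKBP10 (-0.29, -0.31, -0.27 and -0.28), which encode prolyl isomerases of the endoplasmic reticulum, fell in DEP, DProP, DPP and Mix. The FKBP10 calls all ended with library size alone, and with the GC and length correction those in DProP (-0.11, adjusted p = 0.0705), DPP (-0.10, adjusted p = 0.0813) and Mix (-0.13, adjusted p = 0.0566) ended too. SGK3, a kinase gene close to SGK1, rose in DProP (0.85, adjusted p = 0.0483) and DPP (0.98, adjusted p = 0.0244), and was chosen after its values were seen. Its DProP call held in 10 of 19 alternatives, and its DPP call ended without DPP 2 (0.84, adjusted p = 0.126) or vehicle 2 (0.60, adjusted p = 0.137). PER3, a paralogue of PER1, rose in DProP (0.30, adjusted p = 0.00410), a call that ended without DProP 1 (0.23, adjusted p = 0.0511).

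Of 20 tested circadian clock genes around PER1, 2 rose and 3 fell in DEP, 3 rose and 2 fell in DProP, 4 rose and 3 fell in DPP, and 2 rose and 2 fell in Mix. These counts are near or below the shares of all tested genes given above for each treatment. Scaled by library size alone 4, 8, 9 and 5 rose and 0, 2, 1 and 0 fell. ARNTL, the gene of BMAL1, had 47.6 and 51.4 CPM in DEP, 47.8 and 42.1 CPM in DProP, 47.9 and 51.0 CPM in DPP, and 45.6 and 48.7 CPM in Mix, against 30.9 and 31.3 CPM in vehicle. It rose in all 4 treatments by 0.67, 0.53, 0.67 and 0.60 on the log2 scale (adjusted p = 0.000187, 0.000490, 7.37e-05 and 0.000404), and every call held in 19 of 19 alternatives. CLOCK, its partner, rose in DEP, DProP and DPP (0.25, 0.35 and 0.37), and its DEP call ended without DEP 1 (adjusted p = 0.145), DEP 2 (adjusted p = 0.115) or vehicle 2 (adjusted p = 0.167). DBP, an output gene of the clock, fell in DEP, DProP and DPP (-0.41, -0.50 and -0.62), and CSNK1E, a kinase gene that phosphorylates PER proteins, fell in the same treatments (-0.26, -0.47 and -0.28). The calls of CSNK1E in DEP and DPP and of DBP in DEP ended with library size alone and with the GC and length correction. The DBP call in DEP also ended without DEP 2 (adjusted p = 0.148) or vehicle 2 (adjusted p = 0.124), and the CSNK1E call in DEP without any 1 of the DEP and vehicle libraries. The CSNK1E call in DPP ended without DPP 2 (-0.16, adjusted p = 0.179) or vehicle 1 (-0.25, adjusted p = 0.0787).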

How the data were processed

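The deposited table holds raw read counts per gene for 10 libraries. Per the submitters' processing notes, the tools used were Trimmomatic 0.38, HISAT2 2.1.0, StringTie 2.1.3b and edgeR 4.0.9 with GRCh38. Annotation release, strand setting and multiple mapping: not given in the sources used here. Counts were fitted with edgeR 4.0.16 (R 4.3.3): TMM scaling, filterByExpr, robust quasi-likelihood tests over all 10 libraries (5 residual degrees of freedom), Benjamini-Hochberg adjustment over 19465 genes within each of 10 comparisons, threshold 0.05. Levels are CPM on TMM-scaled library sizes. In DEP against vehicle, the median 95% interval reached 0.26 on either side of a log2 fold change. Other settings tried were DESeq2 1.42.0, limma-voom (limma 3.58.1), scaling by relative log expression or by library size only, other filters, the compared groups by themselves, a replicate block and each library left out. A GC and length correction, a fit without vehicle and a 2-fold minimum were added after seeing the data. The members and lists were chosen with earlier results of these data known. From each list at most 4 called genes with non-overlapping groups and the smallest p were named. Replicates of a group differed beyond sampling noise. The code was tested on simulated data.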

Additional observations from a re-analysis of the deposited data

How the results depend on the processing

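Of the members' results called in the report, 395 alternatives kept the call and 53 did not, the fold minimum included, and none reversed a call. Of 22 member calls 11 held in every alternative without a fold minimum. With the 2-fold minimum, added after seeing the data, 133, 204, 406 and 69 genes were called in DEP, DProP, DPP and Mix against vehicle, beside 4601, 6266, 7049 and 3970 without it. Between treatments it left 46 genes in Mix against DPP. It left 1 gene each in DProP against DEP, Mix against DEP, DPP against DProP and Mix against DProP. In DPP against DEP it left 0, and 210 genes had an unadjusted p under 0.05 in edgeR's test against that minimum. Without the minimum 571 were called in DPP against DEP, and DESeq2 without one called 1132. Counts between treatments were otherwise 102 in DProP against DEP, 752 in Mix against DEP, 51 in DPP against DProP, 1342 in Mix against DProP and 3359 in Mix against DPP. They became 612, 1132, 1355 and 399 with DESeq2 and 489, 979, 1602 and 17 in fits of the 2 groups alone, in the order DProP against DEP, DPP against DEP, Mix against DEP and DPP against DProP. The stricter filter gave 279 in DProP against DEP and 146 in DPP against DProP, and the GC and length correction 165 in DProP against DEP, 878 in DPP against DEP and 114 in DPP against DProP. The cause of these shifts was not tested. With library size alone the share of called genes that was higher went to 44.6% in DPP against DProP, beside 54.9%, and to 52.6% in Mix against DProP, beside 63.3%. With the GC and length correction it was 62.7% in Mix against DEP, beside 73.7%.

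Same-numbered libraries did not deviate together (correlations from -0.0465 to 0.0471 over 10 pairs of groups), so no pairing by number was seen in the values. Whether same-numbered libraries were cultured or prepared together is not stated, and these correlations cannot tell. With the replicate block 4301, 5977, 6780 and 3699 genes were called against vehicle, and 92, 529, 651, 36, 1234 and 3147 in DProP against DEP, DPP against DEP, Mix against DEP, DPP against DProP, Mix against DProP and Mix against DPP.

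Leaving out 1 library gave 2075 to 4615 called genes in DEP, 3976 to 6244 in DProP, 4343 to 6828 in DPP and 1569 to 4014 in Mix against vehicle. Between treatments it gave 9 to 267 in DProP against DEP, 80 to 747 in DPP against DEP, 33 to 784 in Mix against DEP, 5 to 132 in DPP against DProP, 382 to 1446 in Mix against DProP and 1498 to 3448 in Mix against DPP. Against vehicle, counts moved by over 1.5 times without DEP 1 (2075) or DEP 2 (2248) in DEP, DProP 2 (3976) in DProP, DPP 2 (4343) in DPP, and Mix 1 (1569) or vehicle 2 (2426) in Mix. Between treatments the lowest counts came without DEP 2 in DProP against DEP and DPP against DEP, DEP 1 in Mix against DEP, DPP 2 in DPP against DProP and Mix against DPP, and Mix 1 in Mix against DProP.

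Signs turned only among member values that were not called, and in 4 called list values. FKBP5 was 0.019 in DEP with library size alone, -0.061 in DProP with the GC and length correction, and in Mix -0.0016 with relative log expression factors, -0.0016 with DESeq2, -0.012 in the 2 groups alone and -0.12 with the correction. ZBTB16 with library size alone was 0.11, 0.16 and 0.064 in DEP, DProP and DPP, and in DProP 0.025 with the stricter filter and 0.0045 with limma-voom. NR3C1 in Mix was -0.0023 with relative log expression factors and with DESeq2, -0.00045 with no filter, -0.00048 with limma-voom, -0.013 in the 2 groups alone, -2.1e-05 with the replicate block and -0.092 with the correction, and in DPP against DEP -0.026 with the correction. With the correction STUB1 was 0.045 in DProP and 0.0017 in Mix, and CARM1 0.012 in DEP and 0.045 in DProP, both called lower without it. Leaving out 1 library gave, against vehicle, HSD11B1 -0.54 to 0.17 in DEP, ZBTB16 -0.21 to 0.13 in DEP, -0.18 to 0.16 in DProP and -0.26 to 0.082 in DPP, FKBP5 -0.19 to 0.26 in DProP and -0.034 to 0.039 in Mix, and NR3C1 -0.11 to 0.11 in Mix. Between treatments it gave ZBTB16 -0.034 to 0.099 in DProP against DEP and -0.12 to 0.018 in DPP against DEP, FKBP5 -0.052 to 0.40 in DProP against DEP, -0.11 to 0.34 in DPP against DProP and -0.25 to 0.19 in Mix against DProP, NR3C1 -0.038 to 0.066 in DPP against DEP, and PER1 -0.042 to 0.093 in DPP against DProP. The depth limits HSD11B1 most, with 4 to 17 counts per library.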
